A study of Mus musculus with 23 samples.

Results

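The data described are the cortex libraries of a small RNA sequencing study of mice lacking the Cdr1as locus, 6 of 23 libraries in all, chosen by their sample titles: 3 from wild type cortex and 3 from Cdr1as knockout cortex. All were dissected brain tissue of C57BL/6 mice. The sources used here do not give age or sex, nor whether the libraries of a group came from separate animals. The p-values therefore cover only the spread among libraries, which may be technical. Both genotypes were also sequenced in cerebellum, hippocampus and olfactory bulb, and those 17 libraries are used for comparison. Each group had 3 libraries except knockout hippocampus, which had replicates 2 and 3 only. The 17 libraries also enter the low-count filter, the scaling and the shared estimate of spread behind the edgeR p-values of cortex. Counts were given for mature miRNAs and 669 of 1915 names passed the filter on low counts.

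MiRNAs are short RNAs cut from hairpin precursors and loaded into Argonaute proteins, where bases 2 to 8, the seed, select the messenger RNAs they repress. A hairpin yields a 5p and a 3p arm, of which usually one, the guide, is retained. Cdr1as is a circular RNA abundant in neurons that carries many binding sites for miR-7 and a site of near-complete pairing to miR-671. Being a circular RNA, it is outside what these libraries count, and the knockout itself could not be checked here. MiRNAs of the miR-200 family and those of the miR-183 cluster are known for their high levels in the olfactory system and other sensory and epithelial cells, and they are low in most of the forebrain.

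Total counts in the 6 libraries ran from 2328929 in knockout replicate 3 to 6830695 in wild type replicate 2, with 804 to 986 miRNAs detected in a library. The brain miRNAs were abundant, with miR-128-3p between 26108 and 29077 counts per 1000000 of the scaled library size (CPM) and miR-124-3p between 12226 and 14602 CPM in the cortex libraries of both genotypes. The hindbrain miRNA miR-10b-5p stood at 167 ± 18.0 CPM in wild type and 170 ± 24.1 CPM in knockout cortex (SD, n = 3 each), against 1432 ± 307 CPM in wild type cerebellum (n = 3). Among the 198 miRNAs at 100 CPM or more in cortex, the median coefficient of variation between replicates was 8.96% in wild type and 12.8% in knockout. The library totals of the other regions reached 13070794.

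The results turn on 2 sets of miRNAs, whose sequences are given first because reads of near-identical members can be exchanged and because members with one seed share predicted targets. The first set holds the arms that have binding sites in Cdr1as. The mature sequences, from RefSeq (mouse GRCm38.p6), are written 5′ to 3′ with the seed in capitals.
miR-7a-5p: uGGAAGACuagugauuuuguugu
miR-7b-5p: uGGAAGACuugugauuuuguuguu
miR-671-5p: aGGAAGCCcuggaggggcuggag
MiR-7a-5p and miR-7b-5p shared the seed GGAAGAC and differed within their common length only by A10U (miR-7a-5p base, position from the 5′ end, miR-7b-5p base). MiR-7a-5p is made from 2 genes, Mir7-1 on chromosome 13, within a Hnrnpk intron, and Mir7-2 on chromosome 7, outside annotated host genes. Mir7b lies on chromosome 17 outside annotated host genes, and Mir671 on chromosome 5 overlaps exons of Chpf2 and Smarcd3.

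The second set holds the bulb miRNAs. Their main arms fell into a few seed groups.
miR-200a-3p: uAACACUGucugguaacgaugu
miR-141-3p: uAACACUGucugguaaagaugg
miR-200b-3p: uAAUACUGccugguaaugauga
miR-200c-3p: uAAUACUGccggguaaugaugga
miR-429-3p: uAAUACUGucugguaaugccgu
miR-182-5p: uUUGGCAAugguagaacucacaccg
miR-96-5p: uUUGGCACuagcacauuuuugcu
miR-183-5p: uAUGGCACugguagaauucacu
MiR-200a-3p and miR-141-3p carried the seed AACACUG, and miR-200b-3p, miR-200c-3p and miR-429-3p carried AAUACUG. MiR-182-5p, miR-96-5p and miR-183-5p, which come from one cluster, had 3 different seeds. Mir182, Mir96 and Mir183 lie together on chromosome 6, Mir200a, Mir200b and Mir429 together within Ttll10 on chromosome 4, and Mir200c and Mir141 together on chromosome 6.

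Knockout was compared with wild type cortex over all 669 tested miRNAs to find which miRNAs differ when Cdr1as is absent. Of these, 14 fell in knockout and none rose (2.09% and 0%, edgeR quasi-likelihood F test, Benjamini-Hochberg adjusted p under 0.05). At an unadjusted p under 0.05 there were 31 miRNAs (4.63%). DESeq2 and limma-voom also called 0 higher, while edgeR with upper quartile scaling called 1, miR-671-5p (adjusted p = 0.0409). The 14 were 8 arms of the miR-200 family, 4 arms of the miR-183 cluster, miR-7a-5p and miR-7b-5p. The median log2 change over all tested miRNAs was -0.02, and 90% of changes lay between -0.79 and 0.52 (the 5th and 95th percentiles).

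**Figure D1:**
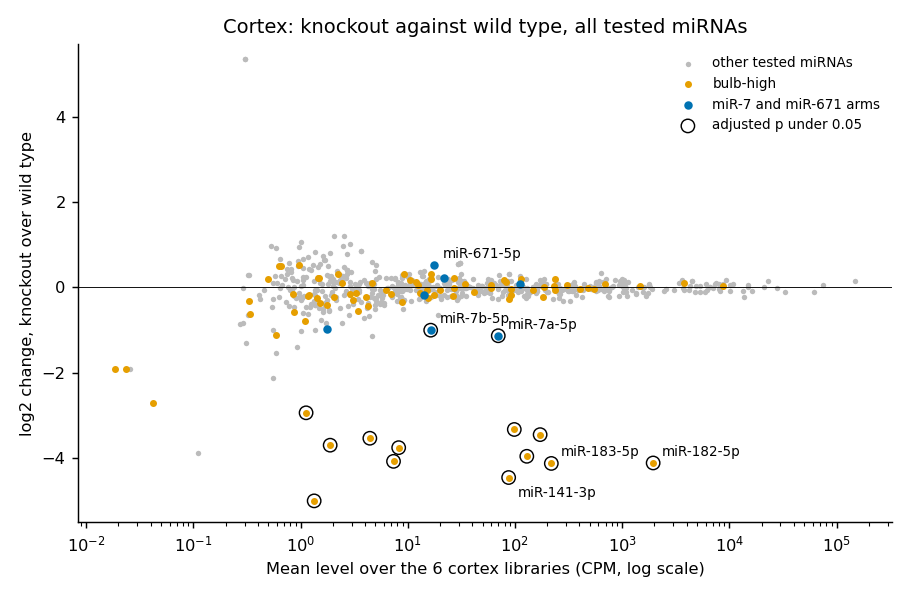
Log2 change of knockout over wild type cortex (vertical axis) against the mean level over the 6 cortex libraries in CPM (horizontal log axis) for the 669 tested miRNAs, each a point, with bulb-high miRNAs in orange, the arms of miR-7 and miR-671 in blue and the 14 that passed the test circled. The circled miRNAs all lie below 0, 12 of them between -2.94 and -5.003 and the miR-7 guides near -1. Changes of miRNAs with counts of 0 in all libraries of a group depend on the fitted prior and are not bounds.

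The miR-7 guides, which repress many neuronal and glial transcripts, were lower by about the same amount. MiR-7a-5p stood at 105, 110 and 72.9 CPM in wild type and at 40.1, 52.9 and 37.8 CPM in knockout. Each knockout library was below each wild type library. The log2 change was -1.13 (SE 0.24, 95% interval -1.64 to -0.63, adjusted p = 0.00619, edgeR).

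MiR-7b-5p, the guide of a separate gene, stood at 23.2, 26.7 and 15.97 CPM in wild type and at 10.7, 12.9 and 8.80 CPM in knockout. The groups again did not overlap, and wild type replicate 3 was the lowest wild type library for both guides. The log2 change was -1.004 (SE 0.26, 95% interval -1.54 to -0.47, adjusted p = 0.0367, edgeR). Since the 2 guides differ at 1 base, their split is uncertain, and the mean of their sum, the output of the seed GGAAGAC, was 118 CPM in wild type and 54.4 CPM in knockout, 46.0% of wild type. Over 18 alternatives to the main fit, miR-7a-5p kept its call in 15 and miR-7b-5p in 6. Leaving out knockout replicate 1 or knockout replicate 3 ended the call of miR-7a-5p, at adjusted p-values of 0.0557 and 0.0630 (edgeR). MiR-7b-5p kept its call in only 1 of the 6 runs with a library left out, without wild type replicate 3, and its adjusted p in the other 5 ran from 0.0548 to 0.236, with log2 changes from -1.16 to -0.84.

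MiR-671-5p, the arm that pairs with Cdr1as, had 12.7, 14.8 and 15.5 CPM in wild type and 19.0, 23.8 and 18.9 CPM in knockout. All knockout values were above all wild type values. The log2 change of 0.53 (SE 0.16, 95% interval 0.20 to 0.86) did not pass, with an adjusted p of 0.134 (edgeR). Of all tested miRNAs, 2.84% had every knockout library above every wild type library and 4.78% had every one below.

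The other arms of the same hairpins did not pass the test. MiR-7a-1-3p, from Mir7-1, had 18.1, 22.1 and 20.5 CPM in wild type and 24.2, 22.4 and 24.1 CPM in knockout, a log2 change of 0.22 (95% interval -0.10 to 0.54). MiR-7a-2-3p, from Mir7-2, had a log2 change of -0.17 (95% interval -0.70 to 0.36) and miR-671-3p, at about 110 CPM the more abundant arm of its hairpin, one of 0.09 (95% interval -0.28 to 0.46). The rarest, miR-7b-3p, had 2.12, 2.81 and 2.33 CPM in wild type and 0.90, 1.82 and 0.65 CPM in knockout, a log2 change of -0.97 (95% interval -1.84 to -0.10) with an unadjusted p of 0.0308 and an adjusted p of 0.825 (edgeR). Among the 7 arms of miR-7 and miR-671, 2 of 7 fell and 0 rose, beside 2.09% and 0% of all tested miRNAs.

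**Figure D2:**
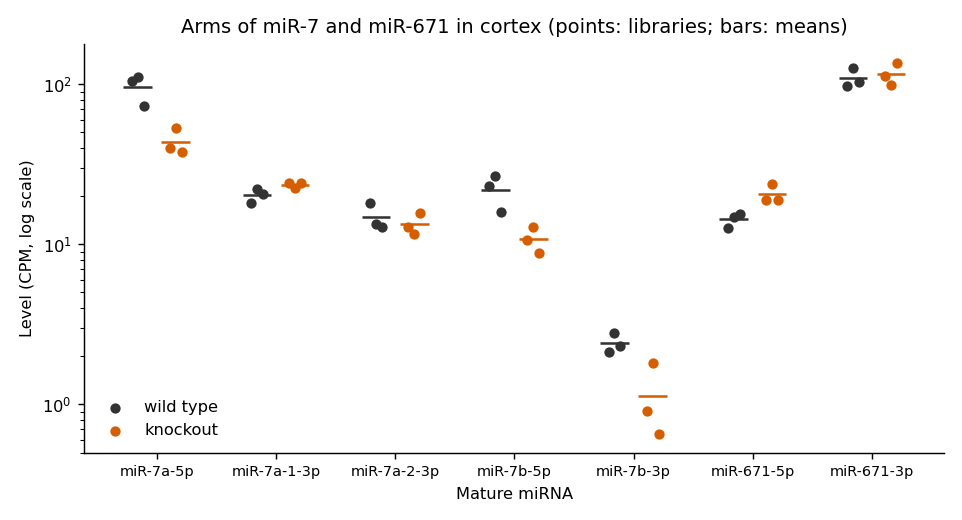
Levels of the 7 arms of miR-7 and miR-671 in CPM (vertical log axis) in each cortex library (points) with the group mean (bars), wild type in black and knockout in orange. The knockout points of miR-7a-5p and miR-7b-5p lie below all wild type points, those of miR-7b-3p also lie below, those of miR-671-5p and miR-7a-1-3p lie above, and those of miR-7a-2-3p and miR-671-3p overlap them.

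The ratio of the 2 arms of a hairpin sets one mature arm against the other within one library and does not depend on scaling. The log2 ratio of miR-7a-5p to the sum of its 2 passenger arms took the wild type values 1.53, 1.64 and 1.13 and the knockout values 0.11, 0.64 and -0.07. The difference was -1.21, with no overlap between groups (two-sided exact permutation test p = 0.1, the smallest that 20 arrangements can give, 0.3 after adjustment over the 3 ratios). For miR-7b the ratio of 5p to 3p averaged 3.12 ± 0.35 in wild type and 3.22 ± 0.39 in knockout (SD, n = 3 each, exact permutation p = 0.5, adjusted p = 0.5), and the sign of the difference turned when single libraries were left out. The miR-671 ratio averaged -2.92 ± 0.19 in wild type and -2.49 ± 0.40 in knockout (SD, n = 3 each, exact permutation p = 0.2, adjusted p = 0.3). Over the 121 arm pairs with both arms at 5 CPM or more, miR-671 among them, the median size of the change in the log2 ratio was 0.10 and the 90th percentile 0.34. The ratios of 4 of the 121 pairs (3.31%) did not overlap between the genotypes.

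**Figure D3:**
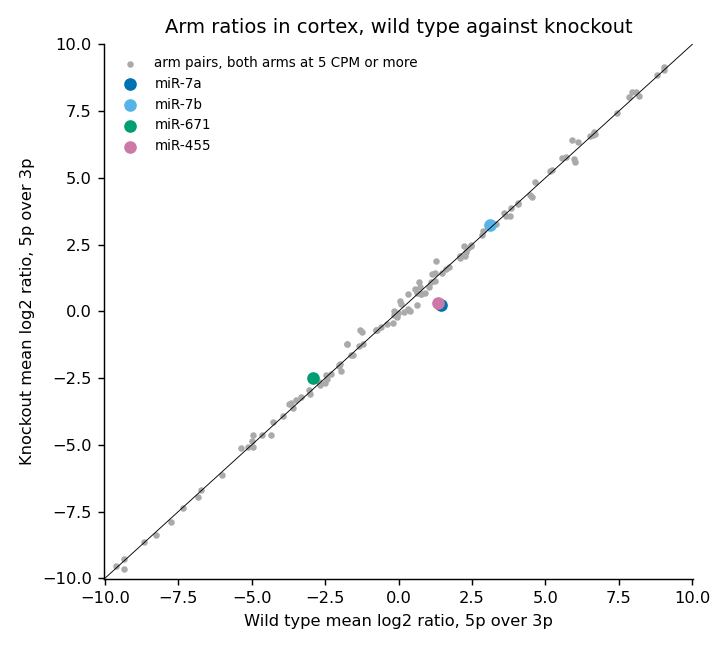
Mean log2 ratio of 5p to 3p counts in knockout (vertical axis) against wild type cortex (horizontal axis) for 121 arm pairs (grey) and for miR-7a, miR-7b, miR-671 and miR-455, with the line of equality. MiR-7a, at 1.43 in wild type and 0.23 in knockout, and miR-455 lie below the line, and miR-7b lies on it.

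The miRNAs abundant in olfactory bulb are reported apart, because bulb lies next to frontal cortex and its RNA could be present in a cortex dissection. They were defined without any cortex library, as at least 2-fold higher in wild type bulb than in wild type hippocampus and cerebellum, with an adjusted p under 0.05. Hippocampus and cerebellum were averaged on the log2 scale, so a low level in either can admit a miRNA that is not highest in bulb. MiR-128-1-5p, on the list, had 121 CPM in wild type bulb, 136 CPM in hippocampus and 20.9 CPM in cerebellum. The rule gave 84 bulb-high miRNAs. Of these, 12 of 84 fell in knockout cortex and 0 rose. The share that fell was 14.3%, against 2.09% of all tested miRNAs and 0.342% (2) of the 585 others. The 12 were all among the 15 miRNAs more than 64-fold higher in bulb, which are exactly the tested arms of the miR-200 family and miR-183 cluster (15 of 16 names tested). Their bulb counts alone were enough for them to enter the fit, whatever their level in cortex.

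MiR-182-5p, the second most abundant miRNA of wild type bulb at 210633 CPM, had 5055, 2712 and 3277 CPM in wild type cortex and 96.3, 302 and 239 CPM in knockout cortex. The lowest wild type library was several times the highest knockout library. The log2 change was -4.11 (SE 0.42, adjusted p = 4.72e-06, edgeR).

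MiR-183-5p, of the same cluster, had 491, 290 and 460 CPM in wild type cortex and 9.03, 34.3 and 27.7 CPM in knockout cortex, a log2 change of -4.13 (SE 0.38, adjusted p = 2.12e-06, edgeR). MiR-96-5p, the third guide of the cluster, had 21.2, 9.32 and 11.5 CPM in wild type and 0, 1.54 and 0.65 CPM in knockout, a log2 change of -4.08 (SE 0.55). Its knockout replicate 1 had no count. Knockout replicate 1 was the lowest knockout library for 9 of the 12 miRNAs, and wild type replicate 1 was the highest wild type library for 10 of the 12.

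The miR-200 family represses the Zeb transcription factors, and its 5 main arms had their highest wild type value in replicate 1 and their lowest knockout value in replicate 1. MiR-200a-3p had 348, 182 and 198 CPM in wild type and 7.59, 23.8 and 14.7 CPM in knockout, a log2 change of -3.96 (SE 0.48). MiR-141-3p, with the same seed, had 234, 119 and 150 CPM in wild type and 1.81, 14.0 and 5.86 CPM in knockout, a log2 change of -4.46 (SE 0.51). In both the groups were far apart, with no wild type library under 119 CPM and no knockout library over 23.8 CPM.

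Of the seed group AAUACUG, miR-429-3p had 415, 210 and 320 CPM in wild type and 14.8, 41.2 and 30.0 CPM in knockout, a log2 change of -3.45 (SE 0.44). MiR-200b-3p had 222, 139 and 178 CPM in wild type and 11.6, 25.8 and 15.3 CPM in knockout, a log2 change of -3.33 (SE 0.37), and miR-200c-3p fell from a mean of 15.4 to 1.05 CPM, a log2 change of -3.76 (SE 0.41). The adjusted p-values of the 8 guides of both groups lay between 2.12e-06 and 4.46e-05 (edgeR). The summed level of a seed in knockout was 5.50% of wild type for AACACUG, 9.26% for AAUACUG, 5.77% for miR-182-5p and 5.73% for miR-183-5p.

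Passenger arms fell as well, 4 of them and on few reads. MiR-200a-5p had 11.3, 6.40 and 6.98 CPM in wild type and 0.72, 0.84 and 0.33 CPM in knockout, a log2 change of -3.54 (SE 0.45, adjusted p = 1.31e-05, edgeR). MiR-141-5p had 57 reads over the 3 wild type libraries and 1 over the 3 knockout libraries, a depth-corrected ratio of 40.0 (exact 95% interval 6.90 to 1608, for counting error only). MiR-183-3p had 77 reads against 4 (ratio 13.5, interval 5.07 to 50.9) and miR-200b-5p 46 against 4 (ratio 8.07, interval 2.95 to 30.9). MiR-200b-5p lost its call without knockout replicate 2, with an adjusted p of 0.0551 (edgeR). The last 3 tested arms had 0 reads in knockout cortex. In wild type cortex miR-182-3p had 2 reads over the 3 libraries, and miR-96-3p and miR-200c-5p each had 1. A difference of these arms was not detectable at this depth. Summed over the 15, the level was 6824, 3689 and 4624 CPM in wild type and 143, 446 and 335 CPM in knockout.

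Set against the wild type bulb mean of each miRNA, the cortex levels of the 12 lay in a narrow band within each wild type library. In wild type the median percentage over the 12 was 2.47% in replicate 1 (range 1.79% to 3.17%), 1.34% in replicate 2 (1.12% to 1.96%) and 1.74% in replicate 3 (1.41% to 2.07%). In knockout it was 0.042%, 0.19% and 0.11%. The difference between the wild type and knockout cortex means ran from 1.49% to 2.19% of the bulb level, with a median of 1.67%, although the bulb levels of the 12 ranged from 109 CPM (miR-200b-5p) to 210633 CPM. Whether bulb RNA in the wild type cortex samples has a part in this difference was not tested.

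**Figure D4:**
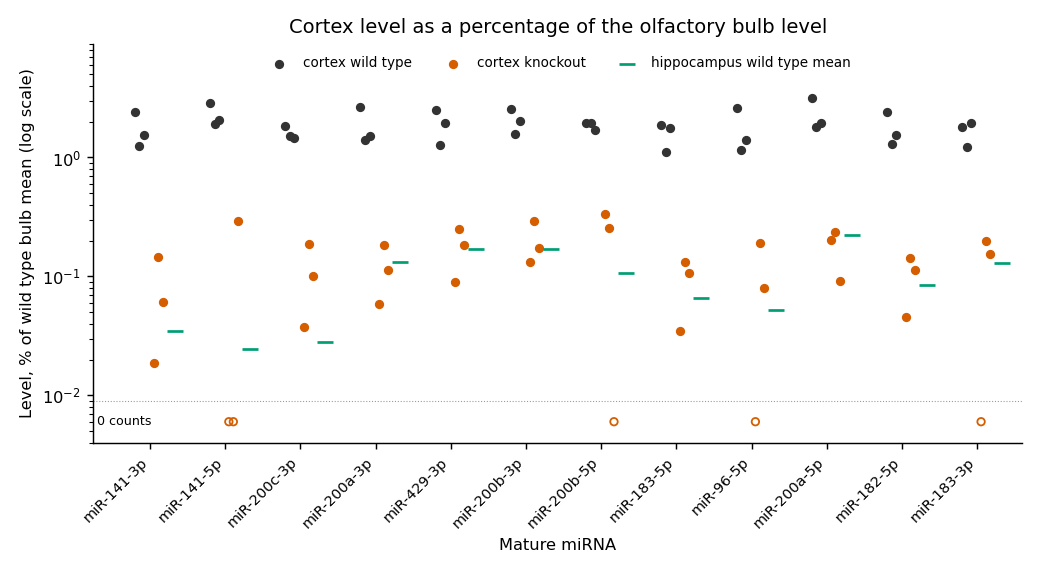
Level of the 12 bulb-high miRNAs that fell in knockout cortex, as a percentage of their wild type bulb mean (vertical log axis), in each wild type (black) and knockout (orange) cortex library, with the wild type hippocampus mean as a green bar and libraries with 0 counts as open circles under the dotted line. Wild type cortex lies between 1.12% and 3.17% for every miRNA and knockout cortex at or below 0.33%.

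The wild type hippocampus mean lay within the range of the 3 knockout cortex libraries for 11 of the 12, the exception being miR-200c-3p, where it was lower. That range began at 0 for miR-141-5p, miR-96-5p, miR-183-3p and miR-200b-5p, so low values fall within it. The wild type cerebellum mean lay above the range for the called miR-183 cluster arms. It lay below for miR-200a-3p, miR-200a-5p, miR-200b-3p and miR-429-3p, and within for the rest. In knockout cortex miR-182-5p ran from 96.3 to 302 CPM. Its wild type range was 132 to 248 CPM for hippocampus and 814 to 1021 CPM for cerebellum. In knockout cortex miR-200a-3p ran from 7.59 to 23.8 CPM, and its wild type range was 14.3 to 21.2 CPM for hippocampus and 1.74 to 11.3 CPM for cerebellum. In wild type cortex both were above every wild type hippocampus and cerebellum library.

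The same difference was not seen in the other 69 bulb-high miRNAs, of which 0 passed, 0 had groups without overlap (background 7.62%) and the median log2 change was -0.05 beside -0.02 over all tested miRNAs. The median share, 1.67% of the bulb level, came from the 12 miRNAs that fell and is not a measured amount of bulb RNA. For the 42 of the 69 at 5 CPM or more in wild type cortex, it amounted to 0.93% to 11.6% of the wild type cortex level. The median was 2.99%. The highest was miR-375-3p, an endocrine and sensory miRNA, which had 99.2, 98.8 and 91.8 CPM in wild type and 69.6, 64.3 and 109 CPM in knockout. Its share was 11.2 CPM and the observed difference between the means 15.5 CPM, and its log2 change of -0.26 (SE 0.35) did not pass, with overlapping groups. For miR-490-3p, 11.2-fold higher in bulb, that share was 7.20 CPM and the observed wild type minus knockout difference 11.9 CPM, and its log2 change of -0.19 (SE 0.19) did not pass. Of the 7 miRNAs 8-fold to 64-fold higher in bulb, 6 had a log2 change below 0 and 1 above (5 and 2 under upper quartile scaling). Of all 669 tested miRNAs, 366 were below 0. The median of the 7 was -0.29, beside -0.02 over all tested miRNAs, and 0 passed. Some of the 7 were near the floor in cortex, with as few as 9 reads over the 3 wild type libraries.

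**Figure D5:**
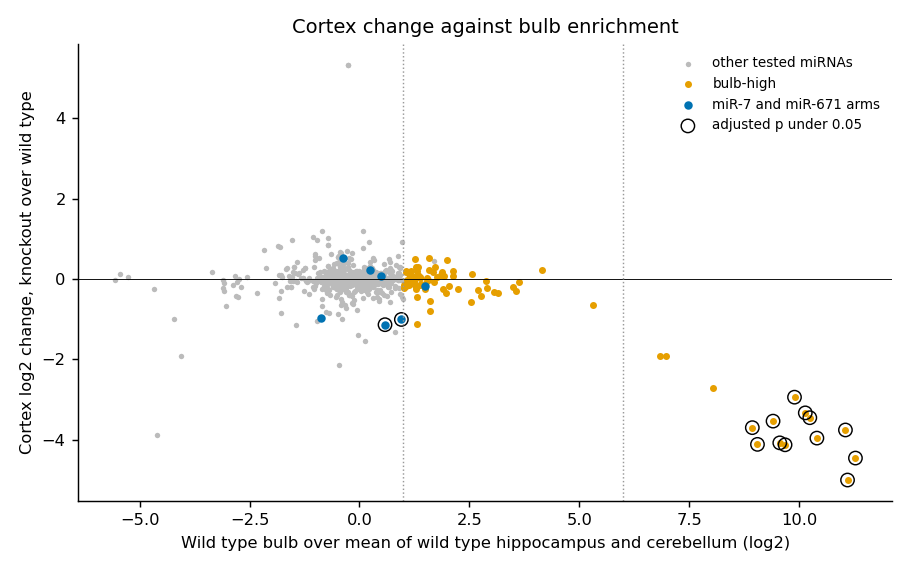
Log2 change of knockout over wild type cortex (vertical axis) for the 669 tested miRNAs, coloured as in the plot of change against level. The horizontal axis is the log2 level of wild type bulb minus the mean of the log2 levels of wild type hippocampus and cerebellum. Dotted lines mark 2-fold and 64-fold. The miRNAs past the right line lie below 0 and the 2 circled miR-7 guides lie left of the first line.

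By abundance alone, the 20 miRNAs with the highest CPM in wild type bulb included 4 that fell in knockout cortex, miR-182-5p, miR-183-5p, miR-429-3p and miR-200a-3p. The other 16 did not pass, had overlapping groups and had log2 changes between -0.10 and 0.18. MiR-181b-5p, bulb-high at 2.39-fold, had 8145, 9206 and 8782 CPM in wild type and 8744, 8038 and 9743 CPM in knockout cortex. The bulb-high miRNAs with the smallest p-values that did not pass, at 5 CPM or more, were miR-449a-5p (log2 change 0.31), miR-130b-5p (-0.34), miR-128-1-5p (0.19) and miR-301b-3p (-0.25).

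For the miR-7 guides the bulb level is near that of cortex. Bulb held 109 CPM of miR-7a-5p and 28.1 CPM of miR-7b-5p in wild type, so the same 1.67% share was 1.82 CPM and 0.47 CPM. The wild type minus knockout differences in cortex were 52.6 CPM for miR-7a-5p and 11.2 CPM for miR-7b-5p. The share was derived from the 12 bulb-high miRNAs that fell, and whether bulb RNA has a part in these differences was not tested. Neither guide was on the bulb-high list, at 1.495-fold and 1.93-fold.

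The knockout effect in cortex was tested against the mean effect in the other 3 regions. It differed for 8 of 669 miRNAs (1.2%, interaction contrast, adjusted p under 0.05, edgeR), all of them bulb-high arms lower in cortex. For miR-182-5p the log2 change was -4.11 in cortex, -0.08 in cerebellum, -0.40 in hippocampus and 0.05 in bulb, and the difference was -3.97 (SE 0.46, adjusted p = 2.92e-05). The miR-200 arms were low in cerebellum and stood lower there in knockout too. In cerebellum 7 of the 8 called arms had a log2 change below 0, with miR-200b-3p at -2.17 (SE 0.61, unadjusted p = 0.00214, adjusted p = 0.359), miR-429-3p at -2.07, miR-200c-3p at -2.06, miR-141-3p at -1.63 and miR-200a-3p at -1.57, while miR-141-5p, nearly without reads there, was at 0.97 (SE 1.15). None of these passed within cerebellum (edgeR).

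Summed over the 8 arms, wild type cerebellum had 10.2, 42.4 and 10.1 CPM and knockout cerebellum 4.37, 7.96 and 5.81 CPM. The knockout libraries lay below all wild type libraries, of which replicate 2 held most. In hippocampus the log2 change of miR-141-3p was -1.33 (SE 0.69, adjusted p = 0.923, edgeR), that of miR-200b-3p -0.19 and that of miR-429-3p -0.03, and in bulb all 12 lay between -0.08 and 0.08. For miR-7a-5p the log2 change was -1.13 in cortex, -0.90 in cerebellum, -1.31 in hippocampus and -0.94 in bulb, and the difference of -0.09 (SE 0.28, adjusted p = 1.0) did not pass. For miR-7b-5p the difference was 0.28 (SE 0.30) and for miR-671-5p 0.09 (SE 0.18), also without passing. The mean log2 change over the other 3 regions was -1.05 for miR-7a-5p, -1.29 for miR-7b-5p and 0.44 for miR-671-5p. Their adjusted p-values were 0.000154, 5.40e-05 and 0.0297 (edgeR).

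The most abundant miRNAs of cortex showed small differences. The first 10 in wild type were miR-181a-5p, miR-9-5p, miR-26a-5p, miR-22-3p, miR-128-3p, let-7f-5p, miR-434-3p, miR-143-3p, miR-138-5p and miR-30a-5p. None passed, all had overlapping groups, and their log2 changes lay between -0.22 and 0.16. MiR-181a-5p, a neuronal miRNA and the most abundant, had 139540, 154953 and 131536 CPM in wild type and 167576, 143355 and 164352 CPM in knockout.

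Among lists of miRNAs known from brain cell types and processes, 0 of the 138 members of 10 lists passed, beside 2.09% of all tested miRNAs, and the list medians of the log2 change lay between -0.09 and 0.10. Of all 669 tested miRNAs, 366 had a log2 change below 0. Of 14 neuron-enriched miRNAs, 12 did, with a median of -0.07. Under upper quartile scaling 3 of 14 did, and all tested miRNAs had a median of 0.12. MiR-9-5p and miR-138-5p were at 0.05 and -0.22. Of 8 miRNAs regulated by neuronal activity, 4 were below 0 and 4 above (0 and 8 under upper quartile scaling), with miR-29a-3p at -0.10 and miR-181c-5p at 0.04. Of 67 tested miRNAs of the imprinted Dlk1-Dio3 cluster, a maternally expressed cluster active in neurons, 44 were below 0 and 23 above with a median of -0.04 (10 and 57 under upper quartile scaling), and its abundant members miR-434-3p and miR-411-5p were at 0.00 and 0.08.

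All 9 let-7 guides had a log2 change above 0, between 0.04 and 0.18, beside 303 of all 669 tested miRNAs above 0. The 9 stayed above 0 under the 3 other scalings, and none passed. With single libraries left out, however, the log2 change of let-7c-5p ran from -0.04 to 0.17. Their sum was 57001, 52089 and 52637 CPM in wild type and 63220, 48275 and 65724 CPM in knockout. Knockout replicate 2 thus lay below all wild type libraries. For miRNAs of glia and of other cell types that a dissection can hold, 0 passed. Of 5 oligodendrocyte miRNAs, with a median of -0.06, miR-338-3p was at -0.21 and miR-219a-2-3p at -0.06. MiR-219a-1-3p, also of the oligodendrocyte lineage, had 1.70, 2.36 and 1.86 CPM in wild type and 2.89, 3.36 and 4.24 CPM in knockout, without overlap, and its log2 change of 0.77 (SE 0.32, unadjusted p = 0.0265) did not pass, with an adjusted p of 0.771 (edgeR). Of 4 miRNAs listed for astrocytes, with a median of -0.01, miR-125b-5p was at 0.07, miR-143-3p at -0.09, miR-21a-5p at -0.10 and miR-449a-5p at 0.31. MiR-143-3p is also on the endothelial and mural list and miR-449a-5p on that of choroid plexus and ciliated cells. The median therefore does not stand for astrocytes alone. Of 8 microglia and leukocyte miRNAs, with a median of -0.06, miR-342-3p was at -0.08 and miR-150-5p at -0.03. The red blood cell miRNAs, with reads shared by miR-486b-5p and its miR-486a-5p copy entered once, summed to 3694, 5595 and 4012 CPM in wild type and 4634, 4350 and 5683 CPM in knockout. The 6 endothelial and mural miRNAs summed to 23978, 21802 and 20348 CPM in wild type and 22945, 18624 and 20794 CPM in knockout, so the groups overlapped in both. In bulk tissue fewer cells of a type and less RNA per cell cannot be told apart.

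Of 15 choroid plexus and ciliated cell miRNAs, miR-204-5p, a marker of choroid plexus, had 1832, 1698 and 1240 CPM in wild type and 1544, 1286 and 1993 CPM in knockout. Of the X-linked miRNAs near the Cdr1as locus, 3 of 25 were abundant enough to test, and miR-504-5p and miR-505-3p had log2 changes of 0.09 (SE 0.28) and -0.11 (SE 0.35). The third, miR-505-5p, had 1.70, 1.24 and 1.24 CPM in wild type and 0.54, 0.98 and 1.30 CPM in knockout, with overlapping groups and a log2 change of -0.62 (SE 0.48) that did not pass.

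Region-high miRNAs of the other 2 regions, defined in the same way as the bulb list, were also counted. Of 101 cerebellum-high miRNAs 0 passed, beside 2.09% of all tested, with miR-217-5p, 114-fold higher in cerebellum, at a log2 change of -0.66 (SE 0.35) in cortex. Of 93 hippocampus-high miRNAs 2 passed (2.15%, beside 2.09% of all tested), which were miR-7a-5p and miR-7b-5p, and the median log2 change was -0.03. MiR-7080-3p, 29.1-fold higher in hippocampus, had a log2 change of 0.17 (SE 0.23).

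Besides miR-671-5p, the miRNAs with the smallest p-values that did not pass, outside the bulb list and at 5 CPM or more, were miR-455-5p (log2 change -0.50, SE 0.19), miR-130a-3p (-0.33, SE 0.13), miR-15b-5p (0.36, SE 0.16), miR-455-3p (0.52, SE 0.23), miR-879-3p (-0.32, SE 0.15), miR-133a-3p (0.26, SE 0.14) and miR-190a-5p (-0.25, SE 0.13). Their adjusted p-values were 0.559 or higher (edgeR). The size of a difference that could be seen depended on the level. The median length of a 95% interval to either side of the log2 change was 1.37 for the 66 miRNAs under 1 CPM, 0.74 for the 220 between 1 and 10 CPM, 0.39 for the 185 between 10 and 100 CPM, and 0.29 for the 72 over 1000 CPM.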

How the data were processed

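The deposited values are the authors' unnormalised counts of reads, in a table for each library; every table lists 1915 mature miRNAs, of which 1459 had a count in some library. Per the labels' protocols, TRIZOL was used for RNA and the TruSeq Small RNA kit for the libraries. Reads were placed on mm9, as the submitters' processing notes list it. For the aligner, the counting program, the annotation and the handling of reads that match several miRNAs, nothing is stated: not given in the sources used here. Sequences, chromosomes and host genes come from RefSeq and GENCODE on GRCm38, matched by name (562 of 669 tested miRNAs had a sequence), and no coordinates are printed because the builds differ. No molecular identifiers are mentioned, and PCR copies are not separate molecules, so intervals of read ratios cover counting error only.

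From the counts, 669 miRNAs passed edgeR's filterByExpr (minimum count 10, minimum total 15). One quasi-likelihood model (R 4.3.3, edgeR 4.0.16, robust) with 8 group means was fitted to all 23 libraries with TMM factors, which share the estimate of spread, and two-sided F tests were adjusted by Benjamini-Hochberg over the 669 at 0.05. CPM are counts per 1000000 of the TMM-scaled library size, so they need not sum to that number. Library totals were 5238231, 6830695 and 4774415 for wild type and 4431438, 5120297 and 2328929 for knockout cortex. Arm ratios add 0.5 to each count. The fitting code was first tested on simulated data.

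No 2 libraries of a group agreed within sampling noise (chi-square per degree of freedom 67.3 to 95.0). MiRNAs with equal counts in every library, such as miR-486a-5p and miR-486b-5p, share reads.

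The comparison and the miRNA lists were chosen with earlier results of these data known. Named miRNAs are the miR-7 and miR-671 arms, the miR-200 family and miR-183 cluster, those past the threshold, the 10 most abundant, the 8 others and 4 bulb-high ones with the smallest p that did not pass at 5 CPM or more, the 2 most abundant of each list and the 2 most region-specific of the hippocampus-high and cerebellum-high lists. MiR-181b-5p, miR-375-3p, miR-490-3p, miR-219a-1-3p, miR-21a-5p and miR-505-5p were named after their values were seen. Alternatives were other scalings, DESeq2 1.42.0, limma-voom (limma 3.58.1), other filters, cortex libraries alone, the replicate block, omission of the bulb-high miRNAs and omission of each library; a fit without robust estimation was chosen after seeing the data.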

Additional observations from a re-analysis of the deposited data

Results flagged for a closer look

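The knockout effect in cortex differed from the mean effect in cerebellum, hippocampus and olfactory bulb for 8 miRNAs, by the interaction contrast of the edgeR fit, and all 8 were bulb-high arms lower in cortex. Within the miR-183 cluster the difference in log2 change was -3.97 for miR-182-5p, -3.76 for miR-183-5p and -4.14 for miR-96-5p. In the miR-200 family it was -3.32 for miR-200a-3p, -3.48 for miR-141-3p, -5.66 for miR-141-5p, -2.55 for miR-200b-3p and -2.77 for miR-429-3p. The value of miR-141-5p rests on 57 reads against 1 in cortex. The 3 cluster guides had log2 changes of -0.08, -0.26 and -0.17 in cerebellum. There miR-200b-3p was at -2.17, miR-429-3p at -2.07, miR-141-3p at -1.63 and miR-200a-3p at -1.57, without passing. MiR-141-5p was at 0.97 there. Summed over the 8 called miR-200 arms, wild type cerebellum had 42.4 CPM in replicate 2 and 10.2 and 10.1 CPM in the others. The adjusted p-values of the difference ran from 2.92e-05 to 0.00434.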

How the results depend on the processing

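The 14 miRNAs lower in cortex, all of them, remained called with DESeq2, without a filter, with a filter at 10 CPM in 3 libraries and without robust estimation. Outside the bulb list the count of 2 fell to 1, miR-7a-5p alone, under RLE, upper quartile and library-size scaling, under limma-voom and with the 6 cortex libraries alone, and it ran from 0 to 2 with single libraries left out. Upper quartile scaling moved the median of all miRNAs to 0.12 and called 1 miRNA higher, miR-671-5p (0.66, adjusted p = 0.0409, edgeR). Leaving out the bulb-high miRNAs gave 0 lower, 0 others and 0 differing between regions. In that fit miR-7a-5p had a log2 change of -1.13 and an adjusted p of 0.0780, and fewer miRNAs with small p-values enter that adjustment. The replicate block over all 23 libraries gave the same 14 calls and 8 differing between regions. With the replicate block in the 6 cortex libraries alone, 3 miRNAs were lower, 2 of them bulb-high (miR-200c-3p and miR-200a-5p) and 1 not (miR-7a-5p); the cause was not tested. The labels do not say whether the numbers pair samples, and the main fit did not pair them. Over 383 miRNAs at 10 CPM or more, the deviations of same-numbered libraries from their group means correlated at 0.08, 0.23 and 0.47. Different-numbered pairs ran from -0.37 to 0.22. Knockout replicates 2 and 3 correlated best with the same-numbered wild type library, and knockout replicate 1 with wild type replicate 2 (0.22). Whether the samples are paired was not settled. The miR-7b arm ratio turned sign without wild type replicate 3 (-0.0928), knockout replicate 1 (-0.0062) and knockout replicate 3 (-0.0182), with the range over omitted libraries -0.0928 to 0.3233; the cause was not tested. Over the 63 named miRNAs and 18 alternatives, 1069 values kept their side of the threshold, 1011 of them with the same sign and 58, none called, with the other sign, while 26 lost the call and 1 gained it. Library depth limits the miRNAs under 1 CPM most.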

Other observations

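Among the 121 arm pairs, the hairpin of miR-455, a miRNA known from cartilage and fat, had the largest change in the log2 ratio of its arms, and it and the other pairs given here were singled out after their values were seen. The log2 ratio of miR-455-5p to miR-455-3p was 1.29, 1.39 and 1.34 in the wild type libraries of cortex and 0.40, 0.34 and 0.22 in the knockout ones, a difference of -1.02 with no overlap. The reads behind it were 74, 77 and 82 of the 5p arm and 30, 29 and 32 of the 3p arm in wild type, and 45, 52 and 21 against 34, 41 and 18 in knockout. In other regions the genotypes overlapped in hippocampus and bulb: wild type hippocampus had 0.76, 0.43 and 0.47 and knockout 0.37 and 1.43, while wild type bulb had 1.18, 1.77 and 1.38 and knockout 1.63, 1.35 and 0.45. Wild type cerebellum had 0.89, 0.91 and 1.03 and knockout 0.66, 0.88 and 0.86, without overlap and by less than in cortex. The other pairs without overlap in cortex were miR-152, with a change of 0.59, miR-873a with -0.25 and miR-744 with 0.17.

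The second largest change, in miR-377, rested on 1 library. Its log2 ratio was 1.33, 1.13 and 1.33 in wild type cortex and 1.22, 1.19 and 3.27 in knockout cortex, where knockout replicate 3 had 91 reads of the 5p arm and 9 of the 3p arm.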
